A study of Mus musculus with 42 samples.

Results

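Doxycycline (Dox) was used to switch on Flag-tagged ISY1 in mouse embryonic stem cells (ESCs) while they were turned into epiblast-like cells (EpiLCs). The comparison asks how the polyA RNA of Dox-treated cells differed at 24 and 48 h of that conversion. It rests on 4 of the 42 libraries of the study, chosen by their labels, and on all 16345 named genes of the table that holds them. The groups are the KH2-ISY1 line with Dox for 24 and 48 h of EpiLC induction (1 library each hour) and the same line without Dox at the same hours (1 library each hour). All 4 libraries share the Dox-inducible Flag-ISY1 KH2 background and the EpiLC induction medium, and differ in Dox and in hour. When Dox was first given, and whether the line is a single clone, are not given in the sources used here. No line lacking inducible ISY1 received Dox, so effects of Dox and of ISY1 cannot be told apart. Other libraries of the study are set beside the 4, each condition and hour again with 1 library. They are the KH2-ISY1 course without Dox from the 2i/LIF start to 96 h, and the same line with Dox at 72 and 96 h. A DGCR8 knockout ESC line, of another genotype, is set beside them at 24 and 48 h. The test of early against late Dox effects used 8 KH2-ISY1 libraries.

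With 1 library per condition and hour, the p values below rest on no culture replicates. The spread they use is that of the Dox difference over the 2 hours, mostly borrowed from other genes. In limma, 1 degree of freedom came from the gene itself and 23.0 from genes of similar level. The libraries held 6.16 to 6.39 M reads. Values are normalised reads, in which a single read was worth 0.877 to 0.935 units, and a difference is always log2(value + 1) with Dox minus that without Dox. Markers of the labelled cells were present: all 8 EpiLC markers, all 4 general pluripotency markers and all 8 naive ESC markers had reads in each of the 4 libraries. Summed over their 8 genes, the EpiLC markers reached 1773 at 24 h and 2765 at 48 h with Dox, against 2981 and 4907 without Dox. In the 2i/LIF cells at the start they summed to 488, and Fgf5 and Sox3 were at 0. The naive markers summed to 11312 and 6388 with Dox and to 8159 and 2751 without Dox. Markers of primitive endoderm summed to 103 at 24 h and 57.0 at 48 h with Dox and to 40.9 and 20.4 without Dox (5 of 6 markers in the table, Pdgfra at 0 with Dox at 24 h). Trophoblast markers (4 of 4) summed to 63.5 and 28.1 with Dox and to 38.2 and 14.2 without Dox. Feeder fibroblast markers (4 of 6) summed to 86.0 and 66.7 with Dox and to 59.1 and 68.2 without Dox. Neuroectoderm markers (3 of 4) summed to 156 and 112 with Dox and to 185 and 212 without Dox. Primitive streak markers (4 of 4) summed to 89.7 and 63.1 with Dox and to 69.0 and 62.0 without Dox. Most of these sums was Eomes, at 84.1 and 60.5 with Dox and 63.6 and 57.5 without Dox. T was at 0 in all 4 libraries and Gsc at 0 at 48 h with Dox. Two-cell-like markers (3 of 5) summed to 5.6 and 57.0 with Dox and to 4.5 and 20.4 without Dox. In bulk RNA, fewer cells of a type and less RNA per cell cannot be told apart.

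Naive pluripotency is the state of the preimplantation epiblast, held in culture by blocking ERK and GSK3 signalling with LIF, and its transcription factors (Klf4, Esrrb, Tfcp2l1, Tbx3) are lost as cells become formative. Formative EpiLCs then switch on Fgf5, Pou3f1 and the de novo DNA methyltransferases while Pou5f1, which encodes Oct4, stays on. ISY1 is a splicing factor associated with the Prp19 complex, which remodels the spliceosome, and in mouse ESCs it has been described as a promoter of primary microRNA processing.

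Isy1 RNA itself was higher with Dox at both hours. The transcript stood at 3038 at 24 h and 912 at 48 h with Dox, against 423 and 396 without Dox. Both Dox libraries lay above both libraries without Dox, with the 24 h library far above the rest (log2 2.02 ± 0.20, adjusted p = 2.57e-06 in limma). The hourly difference was 2.84 at 24 h and 1.20 at 48 h, so that the excess at 48 h was smaller. When limma borrowed the spread without regard to level, the adjusted p of Isy1 was 0.475. A transcript listed under the clone-based name RP23-4F16.12 was next to Isy1 in pattern. It had 1233 at 24 h and 359 at 48 h with Dox, against 97.3 and 87.6 without Dox (log2 2.84 ± 0.22, adjusted p = 6.07e-08). Over the 14 KH2-ISY1 libraries of the EpiLC course its log2 level had a Pearson r of 0.967 with Isy1, followed by Susd6 (0.815) and Mdm2 (0.814). These 14 points share the 4 Dox libraries that set the Isy1 level, and the correlation is given as a description. The name is not in the reference tables used here, and whether the transcript shares sequence or reads with Isy1 was not analysed.

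Dox changed 621 of 15980 tested genes (3.89%) in limma, 439 of them higher (2.75%) and 182 lower (1.14%). Of the called genes 620 moved the same way at both hours. Over all tested genes 33.1% were higher at both hours and 26.5% lower at both. The changes were mostly moderate: 179 of the 621 reached 2-fold in the mean and 117 stayed under a log2 difference of 0.5, while the median over all tested genes was 0.02. By size alone, 240 genes were at least 2-fold different the same way at both hours (1.5%), 161 higher (1.01%) and 79 lower (0.494%). The number of calls leans on the spread that limma borrows across genes, since the fit has 1 residual degree of freedom of its own beside a prior of 23.0. A single pair has no residual spread, so fits that left out a pair took their spread from the pairs at 72 and 96 h and assumed that the lone pair varies likewise. On that assumption limma called 2 of 16134 genes for the 24 h pair. It called 524 of 16079 for the 48 h pair, of which 273 were among the 621. On recovered reads edgeR called 0 genes (2045 at an unadjusted p under 0.05). With a minimum mean of 20 reads it called 597 (4.76%), and 546 of these were among the 621. The gene lists below were chosen with earlier results of these data known, so their counts of calls are descriptions.

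**Figure D1:**
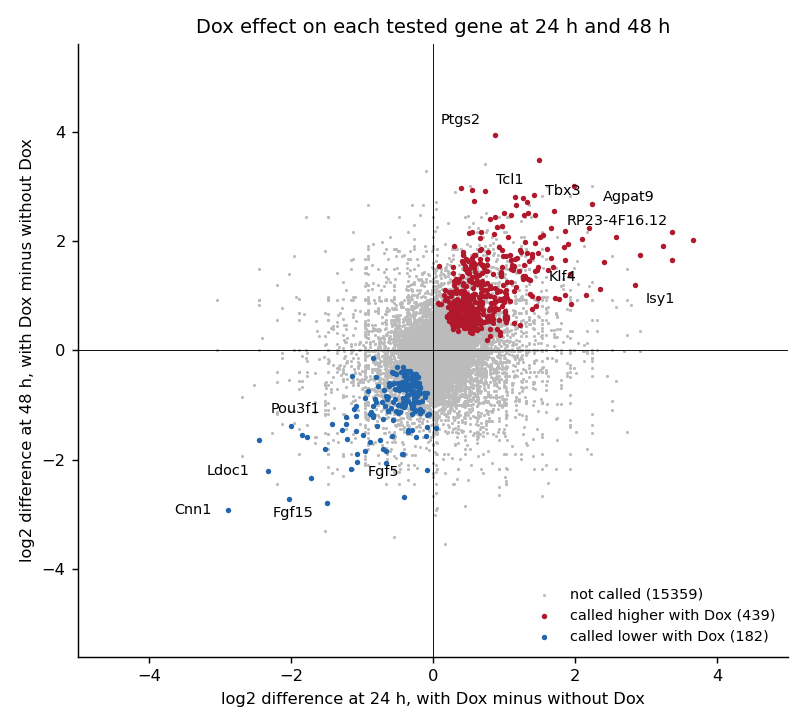
Dox effect at 24 h (horizontal axis) and 48 h (vertical axis) for each of the 15980 tested genes, as log2 differences with Dox minus without Dox. The 439 genes called higher lie to the upper right and 181 of the 182 called lower to the lower left, the exception being Prr12 at 0.03 and -1.42. Isy1 is at 2.84 on the 24 h axis and 1.20 on the 48 h axis.

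Genes of naive pluripotency were higher with Dox. Of the 21 listed genes 12 rose and 0 fell, where 2.75% of all genes tested rose, and the list median was 0.81 (0.32 at 24 h and 1.30 at 48 h), against 0.02 over all genes tested. Tbx3, a T-box factor that sustains naive self-renewal, had 147 at 24 h and 63.2 at 48 h with Dox, against 54.5 and 8.0 without Dox (log2 2.12 ± 0.31, adjusted p = 0.000168). Klf4, a zinc finger factor downstream of LIF, stood at 174 with Dox and 61.8 without Dox at 24 h, and 93.9 with Dox and 31.9 without Dox at 48 h. Its difference was 1.48 at 24 h and 1.53 at 48 h (adjusted p = 0.000224). For both genes each Dox library lay above each library without Dox, across hours as well. Tcl1, a co-activator of the kinase Akt, was at 219.6 at 24 h and 66.7 at 48 h with Dox, against 133 and 8.0 without Dox (log2 1.82 ± 0.33, adjusted p = 0.00162). Jam2, a junctional adhesion molecule, was at 41.2 with Dox and 13.3 without Dox at 48 h, and its difference was 1.11 at 24 h and 1.56 at 48 h (log2 1.34 ± 0.22, adjusted p = 0.000629). For Tcl1 and Jam2 the hours overlap, since 48 h with Dox was below 24 h without Dox, but within each hour the Dox library was the higher.

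The other naive genes that rose included further transcription factors. Esrrb, an orphan nuclear receptor, had 1222 at 24 h and 901 at 48 h with Dox, against 817 and 301.8 without Dox (log2 1.08 ± 0.15, adjusted p = 0.000157). Tfcp2l1, a LIF and GSK3 pathway target, had 2046 with Dox and 1206 without Dox at 24 h, and 2139.5 with Dox and 669.9 without Dox at 48 h (log2 1.22 ± 0.14, adjusted p = 1.71e-05). Tfcp2l1 is the clearest case in which both Dox values were close together while the value without Dox was much lower at 48 h than at 24 h. Klf5 (0.88 ± 0.16), the nuclear receptors Nr5a2 (0.99 ± 0.26) and Nr0b1 (0.81 ± 0.18), the zinc finger gene Zfp42, known as Rex1 (0.77 ± 0.14), the demethylating enzyme Tet2 (0.81 ± 0.18) and Dppa5a (0.33 ± 0.09) rose as well. Their adjusted p values ran from 0.00141 (Klf5) to 0.0338 (Dppa5a). In all 12 the Dox difference was larger at 48 h than at 24 h. At 24 h Nr0b1 was nearly level, at 2285 at 24 h and 704 at 48 h with Dox, against 2156 and 242 without Dox, and its difference was 0.08 at 24 h and 1.54 at 48 h.

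Not every naive gene followed. Nanog had 1137 at 24 h and 590.4 at 48 h with Dox, against 644 and 658 without Dox, higher with Dox at 24 h and slightly lower at 48 h (adjusted p = 0.284). Fgf4, the ligand that drives exit through ERK, was close to level at 2835 with Dox and 2782 without Dox at 24 h, and 2107 with Dox and 2124 without Dox at 48 h (adjusted p = 0.986). Dppa3, a maternal factor that marks naive and germ cells, was the lower one at both hours, at 3.7 at 24 h and 18.4 at 48 h with Dox, against 9.1 and 35.4 without Dox. It did not pass (adjusted p = 0.239). Klf2, Prdm14, Manba, Pecam1 and Ooep had positive mean differences from 0.25 (Ooep) to 0.99 (Prdm14) and missed the threshold, and Gbx2 stood at -0.32. Receptors and targets of LIF and STAT3 signalling, which feeds the naive factors, gave 0 calls among 9 genes in limma and 0 in edgeR with the 20-read minimum. Unadjusted p values under 0.05 belonged to 3 higher genes and 0 lower ones, and the list median was 0.29 (0.12 at 24 h and 0.43 at 48 h). Stat3 itself was at 108 with Dox and 91.8 without Dox at 24 h, and 150.0 with Dox and 93.8 without Dox at 48 h (adjusted p = 0.267).

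Genes of the formative epiblast were lower with Dox. Of 18 listed genes 9 fell and 0 rose, where 1.14% of all genes tested fell, with a median of -0.66. Fgf5, the growth factor that defines EpiLCs, had 43.9 at 24 h and 117 at 48 h with Dox, against 93.6 and 482 without Dox (log2 -1.56 ± 0.21, adjusted p = 0.000115). Pou3f1, a POU factor of the postimplantation epiblast known as Oct6, had 173 with Dox and 407 without Dox at 24 h, and 257 with Dox and 596 without Dox at 48 h (log2 -1.22 ± 0.14, adjusted p = 1.65e-05). For Pou3f1 both Dox libraries lay below both libraries without Dox, while for Fgf5 the Dox library at 48 h exceeded the 24 h library without Dox. Fgf15, an epiblast FGF ligand, was at 36.4 at 24 h and 22.8 at 48 h with Dox, against 104 and 163 without Dox (log2 -2.14 ± 0.28, adjusted p = 6.97e-05). The zinc finger gene Sall2 was at 82.2 with Dox and 174 without Dox at 24 h, and 68.4 with Dox and 258 without Dox at 48 h (log2 -1.49 ± 0.20, adjusted p = 0.000122). Without Dox both genes had the higher value at 48 h, and with Dox the higher value at 24 h.

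The de novo methyltransferases were among the lower formative genes. Dnmt3a had 342 at 24 h and 1018 at 48 h with Dox, against 756 and 1403 without Dox (log2 -0.80 ± 0.13, adjusted p = 0.000671), with a difference of -1.14 at 24 h and -0.46 at 48 h. Dnmt3b had 464 with Dox and 676 without Dox at 24 h, and 578 with Dox and 1069 without Dox at 48 h (log2 -0.71 ± 0.12, adjusted p = 0.000941). Their catalytically inactive cofactor Dnmt3l did not pass and was the higher one at 48 h, at 1926 at 24 h and 1546 at 48 h with Dox, against 1963 and 958 without Dox (adjusted p = 0.169). With Tet2 higher, the DNA methylation list of 8 had 1 gene called higher and 2 lower (median -0.14). Over all genes tested 2.75% were called higher and 1.14% lower. The maintenance enzymes Dnmt1 (-0.11) and Uhrf1 (-0.16) were not called. Zic5 (-0.60 ± 0.12), Zic2 (-0.53 ± 0.14) and Sox3 (-1.16 ± 0.33), which encode zinc finger and SOX factors of the epiblast and neural plate, also fell (adjusted p = 0.00388, 0.0272 and 0.0468). Otx2, a homeobox factor that directs enhancers during exit, was at 235 with Dox and 336 without Dox at 24 h, and 410.5 with Dox and 523 without Dox at 48 h. It did not pass (adjusted p = 0.0764). Wnt8a had few reads, 0.9 at 24 h and 3.5 at 48 h with Dox, against 3.6 and 21.2 without Dox, and did not pass either (adjusted p = 0.103).

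General pluripotency genes had a list median of -0.05, and some of them fell. Pou5f1 was at 11478 at 24 h and 8929.8 at 48 h with Dox, against 11414 and 8288 without Dox (log2 0.06 ± 0.09, adjusted p = 0.83). Of 10 genes 3 fell and 0 rose, where 1.14% of all genes tested fell. Lin28a had 1618 at 24 h and 2188 at 48 h with Dox, against 2372 and 2917 without Dox (log2 -0.48 ± 0.10, adjusted p = 0.00487). Utf1 (log2 -0.55 ± 0.10, adjusted p = 0.0018) and Trim28 (log2 -0.35 ± 0.09, adjusted p = 0.0289) fell too. Lin28a encodes an RNA-binding protein that blocks let-7 maturation, Utf1 a chromatin protein of pluripotent cells and Trim28 a corepressor. Sox2 was at 1843 with Dox and 1674 without Dox at 24 h, and 1193 with Dox and 974 without Dox at 48 h and was not called (adjusted p = 0.317).

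The mean level of both lists places the Dox libraries on the course without Dox. The naive list averaged 8.90 at 24 h and 7.99 at 48 h with Dox, on the log2(value + 1) scale, against 8.50 and 6.94 without Dox. Along the course without Dox it was 9.21 at 18 h, 8.02 at 30 h and 8.46 at 36 h, so the 48 h Dox library was close to the 30 h library. The formative list averaged 7.07 and 7.22 with Dox, against 7.67 and 8.10 without Dox, and both Dox values lay between those of the 18 h (6.74) and 24 h libraries without Dox. These are single libraries, and the 18, 30 and 36 h libraries are deeper (9.42 to 9.71 M reads). Gene by gene, 11 of the 21 naive genes at 48 h with Dox had a value below that of 24 h and above that of 48 h without Dox, and Dppa3 lay between them the other way round.

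**Figure D2:**
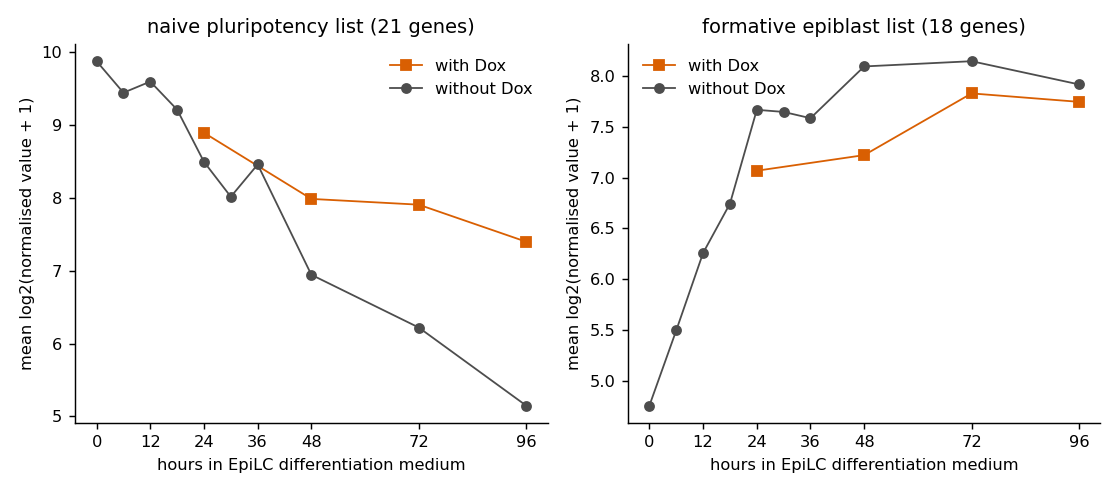
Mean log2(normalised value + 1) of the 21 naive pluripotency genes (left) and 18 formative epiblast genes (right) against hours in EpiLC medium, with Dox (squares) and without Dox (circles), 1 library per point. At 48 h the naive list is at 7.99 with Dox and 6.94 without Dox, and the formative list at 7.22 with Dox and 8.10 without Dox.

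Transcripts of the mitochondrial genome were higher with Dox. It encodes 13 subunits of the respiratory chain and ATP synthase. Of the 13 genes 12 rose, where 2.75% of all genes tested rose. The list median was 0.64 (0.33 at 24 h and 0.98 at 48 h). The Complex I subunit gene mt-Nd3 had 2017 at 24 h and 2087 at 48 h with Dox, against 1340.0 and 626 without Dox (log2 1.16 ± 0.16, adjusted p = 0.000113). mt-Nd2, of the same complex, had 14443 with Dox and 11227 without Dox at 24 h, and 16349 with Dox and 6629 without Dox at 48 h (log2 0.83 ± 0.13, adjusted p = 0.00039). In both cases the 48 h library without Dox was the lowest and both Dox libraries were near each other. mt-Atp8, an ATP synthase subunit, stood at 2998 at 24 h and 4932 at 48 h with Dox, against 1928 and 2500.0 without Dox (log2 0.81 ± 0.10, adjusted p = 5.59e-05). mt-Cytb, of Complex III, was at 27562 with Dox and 21908 without Dox at 24 h, and 23662 with Dox and 12349.6 without Dox at 48 h (log2 0.63 ± 0.11, adjusted p = 0.000915).

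The gene that was not called was mt-Co1, a cytochrome c oxidase subunit. It was at 61157 at 24 h and 77496 at 48 h with Dox, against 60623 and 73755 without Dox (log2 0.04 ± 0.09, adjusted p = 0.887). The 13 genes took 3.88% of reads at 24 h and 4.59% at 48 h with Dox, against 3.36% and 3.19% without Dox. Without mt-Co1 the other 12 took 2.82% and 3.21% with Dox and 2.29% and 1.84% without Dox. In each of the 12 the Dox difference was larger at 48 h, between 0.44 and 1.74, than at 24 h, between 0.17 and 0.64. mt-Atp8 overlaps mt-Atp6, mt-Nd4l overlaps mt-Nd4, and mt-Nd6 lies opposite other mitochondrial RNA. How reads shared by such genes were counted is not given in the sources used here, so these members are not fully separate measurements.

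**Figure D3:**
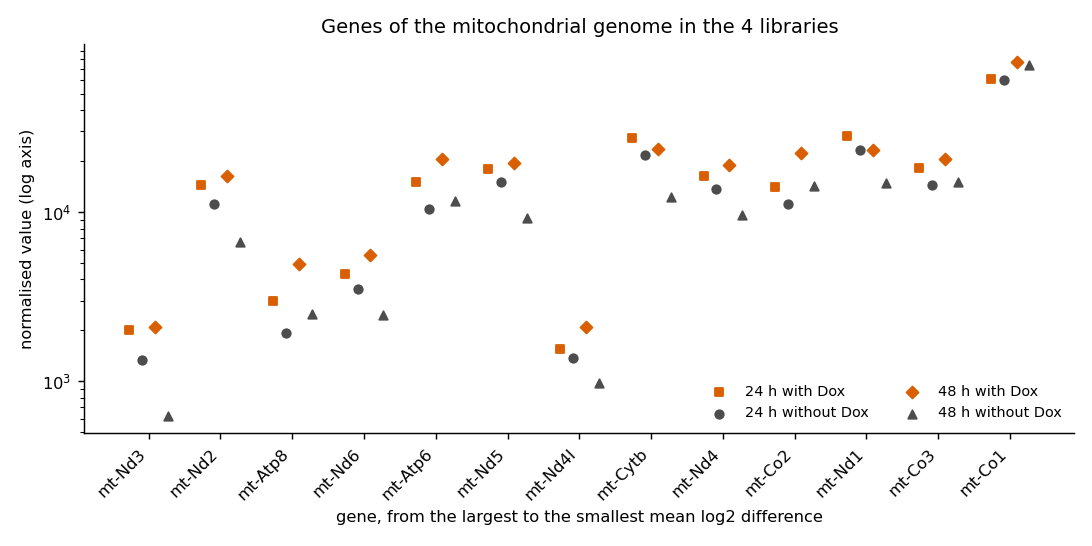
Normalised value (log axis) of the 13 genes of the mitochondrial genome in the 4 libraries, with Dox (orange) left of without Dox (grey) at 24 and 48 h, ordered by mean difference. For mt-Nd3 the Dox libraries are at 2017 and 2087, against 1340 and 626 without Dox, while mt-Co1 is nearly level at the right.

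Several targets of ATF4, the factor that carries the integrated stress and amino acid responses, rose. The 14-gene list had 4 calls, all higher, where 2.75% of all genes tested rose. Its median was 0.45 (0.54 at 24 h and 0.25 at 48 h). Ddit3, which encodes the stress factor CHOP, had 122 at 24 h and 209.6 at 48 h with Dox, against 51.8 and 58.4 without Dox (log2 1.52 ± 0.22, adjusted p = 0.000157). Asns, asparagine synthetase, had 1726 with Dox and 1186 without Dox at 24 h, and 2279.8 with Dox and 1366 without Dox at 48 h (log2 0.64 ± 0.10, adjusted p = 0.000506). In both genes each Dox library lay above each library without Dox. Aldh1l2, a mitochondrial folate enzyme (log2 1.19 ± 0.29, adjusted p = 0.0168), and the pseudokinase gene Trib3 (log2 0.54 ± 0.12, adjusted p = 0.0129) also rose. Trib3 was at 628 at 24 h and 715 at 48 h with Dox, against 394 and 541 without Dox. Atf4 transcript was not called (3553 with Dox and 2866 without Dox at 24 h, and 4052 with Dox and 4307 without Dox at 48 h, adjusted p = 0.673). The serine enzymes Psat1 (0.33) and Phgdh (0.15) and the glutathione-degrading Chac1 (0.06) were not called. Neither were Vldlr (0.80), Atf3 (0.64) and Gdf15 (0.76, adjusted p = 0.0942 in limma). Gdf15 was higher in both pairs, at 82.2 with Dox and 40.9 without Dox at 24 h, and 80.7 and 55.8 at 48 h. The cystine transporter Slc7a11 was lower in both pairs (-0.40 ± 0.12, adjusted p = 0.0666), and was called lower by edgeR with the 20-read minimum.

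ATF4 binds joint C/EBP and ATF elements. The letters TGATGNAA were searched on both strands of RefSeq promoters of build GRCm38.p6 (250 bases before the start site to 50 after it). Of the 13 list genes with a promoter entry 6 held a match, as did 2.72% of the 10499 tested genes with an entry. The list was drawn up as ATF4 targets, so its larger share was given in advance and is no result about Dox. Among the called genes with an entry 2 of 3 held a match, Asns at position -23 and Trib3 at position 14 from the start site. Ddit3 did not hold these letters in this window. Chac1, Atf3, Slc7a11 and Vldlr held a match and were not called by limma, with differences of 0.06, 0.64, -0.40 and 0.80. Asns (chr6:7693160-7693459, minus strand) and Trib3 (chr2:152344011-152344310, minus strand) are shown because they were called and hold a match, which the capitals mark. Asns has the letters as searched and Trib3 the reverse complement. A match describes the window and is not a binding site.
Asns: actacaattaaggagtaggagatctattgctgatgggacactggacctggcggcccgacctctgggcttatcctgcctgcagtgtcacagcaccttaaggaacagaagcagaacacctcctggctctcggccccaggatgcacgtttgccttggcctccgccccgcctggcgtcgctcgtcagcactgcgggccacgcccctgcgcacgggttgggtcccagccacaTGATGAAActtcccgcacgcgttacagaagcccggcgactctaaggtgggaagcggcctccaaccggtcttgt
Trib3: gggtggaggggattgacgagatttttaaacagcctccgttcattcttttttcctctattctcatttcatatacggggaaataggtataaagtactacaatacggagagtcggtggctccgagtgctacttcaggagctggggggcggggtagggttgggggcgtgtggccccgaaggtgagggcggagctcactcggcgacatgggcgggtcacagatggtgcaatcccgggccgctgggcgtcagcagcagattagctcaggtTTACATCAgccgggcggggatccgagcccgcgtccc

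Among p53 targets 4 of 14 rose and 0 fell, where 2.75% of all genes tested rose and 1.14% fell. The list median was 0.23 (0.45 at 24 h and 0.09 at 48 h). Perp, a desmosomal protein gene of the p53 response, had 321 at 24 h and 295 at 48 h with Dox, against 139 and 107 without Dox (log2 1.33 ± 0.16, adjusted p = 4.5e-05). Btg2, an antiproliferative gene, had 558 with Dox and 276 without Dox at 24 h, and 564 with Dox and 365 without Dox at 48 h (log2 0.82 ± 0.13, adjusted p = 0.000595). Mdm2, the ubiquitin ligase that degrades p53, had 428 at 24 h and 373 at 48 h with Dox, against 251 and 251 without Dox (log2 0.67 ± 0.14, adjusted p = 0.00613). All 3 genes had both Dox libraries above both libraries without Dox. Trp53inp1 rose by 0.54 ± 0.11. Cdkn1a, the p21 cell cycle inhibitor, was at 787 with Dox and 533 without Dox at 24 h, and 668 with Dox and 580.5 without Dox at 48 h. It did not pass (adjusted p = 0.0904). The death genes Bax (-0.01), Bbc3 (-0.05) and Pmaip1 (0.17) were not called.

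**Figure D4:**
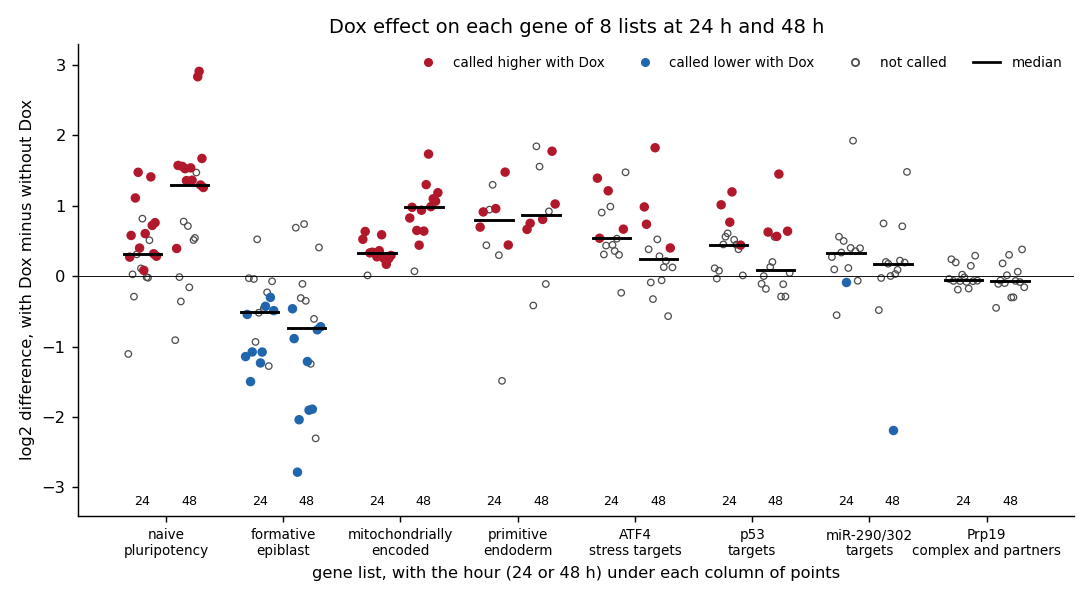
Log2 difference, with Dox minus without Dox, for each gene of 8 lists at 24 h (left column of each list) and 48 h (right column). Filled points were called by limma (red higher, blue lower) and bars are medians. The naive and mitochondrial lists shift up more at 48 h, and the Prp19 list stays near 0 with no filled point.

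Among genes of primitive endoderm and its basement membrane 5 of 10 tested rose and 0 fell, where 2.75% of all genes tested rose. The list median was 0.78. Sox7, a SOX factor of endoderm, had 70.1 at 24 h and 17.5 at 48 h with Dox, against 24.5 and 4.4 without Dox (log2 1.63 ± 0.37, adjusted p = 0.0115). The others were matrix genes made by several cell types: the laminin gene Lama1 (0.88 ± 0.20), the type IV collagen genes Col4a1 (0.68 ± 0.13) and Col4a2 (0.83 ± 0.17) and Sparc (0.74 ± 0.12). Their adjusted p values ran from 0.000493 (Sparc) to 0.0105 (Lama1). The lineage-defining factors were low. Gata6 was at 15.0 with Dox and 5.5 without Dox at 24 h, and 20.2 with Dox and 6.2 without Dox at 48 h (adjusted p = 0.0897). Gata4 was at 15.0 at 24 h and 12.3 at 48 h with Dox, against 7.3 and 2.7 without Dox (adjusted p = 0.141). Both were higher with Dox in each pair without a call. Pdgfra, another defining marker, was at 0 at 24 h with Dox and at 2.6 at 48 h with Dox, against 1.8 and 0.9 without Dox. Not called either were Lamb1, a laminin gene, with a difference of 0.30 at 24 h and -0.11 at 48 h, and the adaptor gene Dab2, with 0.44 at 24 h and -0.42 at 48 h. Of 3 visceral endoderm products tested Apoe rose (log2 0.58 ± 0.13, adjusted p = 0.0118). The part of the marker levels given above in these differences was not tested.

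In signalling lists, calls were few, where 2.75% of all genes tested rose and 1.14% fell. Bmp4, the ligand, rose with 170.1 at 24 h and 51.8 at 48 h with Dox, against 82.7 and 21.2 without Dox (log2 1.14 ± 0.24, adjusted p = 0.00668). The BMP target Id2 rose too (log2 0.70 ± 0.19, adjusted p = 0.0374), which makes 2 of 7 genes in that list, with a median of 0.47 (0.28 at 24 h and 0.57 at 48 h). Spry4 (log2 0.55 ± 0.13, adjusted p = 0.0168) and Spry2 (log2 0.41 ± 0.12, adjusted p = 0.0498), feedback inhibitors of FGF signalling, rose among 13 FGF and ERK targets (median 0.25). The ERK phosphatase gene Dusp6 was not called (1241 with Dox and 1254 without Dox at 24 h, and 1928 with Dox and 1454 without Dox at 48 h). The Wnt antagonist Sfrp1 rose (1249 at 24 h and 539 at 48 h with Dox, against 696 and 380.5 without Dox; log2 0.67 ± 0.12, adjusted p = 0.00182). It was the single call among 9 Wnt genes (median -0.06), and Axin2, a general Wnt target, was not called (-0.27). Of 10 Nodal pathway genes 1 fell, the antagonist gene Lefty1 (median -0.15). Lefty1 was level at 24 h and lower at 48 h, with 150.5 with Dox and 160.0 without Dox at 24 h, and 34.2 with Dox and 158 without Dox at 48 h (log2 -1.13 ± 0.29, adjusted p = 0.0252). edgeR with the 20-read minimum did not call it.

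Growth and metabolism genes changed in part, where 2.75% of all genes tested rose and 1.14% fell. Of 10 Myc and G1 cell cycle genes 3 fell and 0 rose, with a median of -0.39 (-0.22 at 24 h and -0.47 at 48 h). Mycn, a Myc family gene, had 244 at 24 h and 145 at 48 h with Dox, against 346 and 319.5 without Dox (log2 -0.82 ± 0.16, adjusted p = 0.00373). The cyclin D1 gene Ccnd1 had 1181 with Dox and 1454 without Dox at 24 h, and 391 with Dox and 874 without Dox at 48 h (log2 -0.73 ± 0.14, adjusted p = 0.00316). The third was the cyclin E1 gene Ccne1 (log2 -0.43 ± 0.10, adjusted p = 0.0163). All 3 were lower with Dox in each pair, and the difference in Ccnd1 was -0.30 at 24 h and -1.16 at 48 h. Glycolysis genes split, with 2 of 17 higher and 3 lower (median -0.20). Ldha, the enzyme that makes lactate, had 2022 at 24 h and 2202 at 48 h with Dox, against 2724 and 4252 without Dox (log2 -0.69 ± 0.11, adjusted p = 0.000432). Pfkl (-0.42 ± 0.11) and Tpi1 (-0.44 ± 0.12) fell too. The glucose transporter gene Slc2a3 rose, with 2675 with Dox and 1644 without Dox at 24 h, and 1733 with Dox and 1041 without Dox at 48 h (log2 0.72 ± 0.10, adjusted p = 0.00015). So did the phosphofructokinase gene Pfkp (0.72 ± 0.16). Vegfa was the 1 call among 13 hypoxia genes (log2 0.81 ± 0.23, adjusted p = 0.0423; median -0.04).

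The remaining lists held few calls or none, where 2.75% of all genes tested rose and 1.14% fell. Of 10 germline genes Dazl rose (log2 0.58 ± 0.16, adjusted p = 0.0385). Of 9 cadherin and EMT genes Fn1 rose (log2 0.44 ± 0.12, adjusted p = 0.0387). Of 12 contractile and SRF/YAP targets Cyr61 rose (log2 0.57 ± 0.15, adjusted p = 0.0269) and Cnn1 fell. limma made 0 calls in primitive streak (4 tested), neuroectoderm (4), trophoblast (9), feeder fibroblast (3), two-cell-like (7) and interferon genes (7). At an unadjusted p under 0.05 those lists had 0, 0, 2, 1, 2 and 0 genes higher and 0, 2, 1, 0, 0 and 1 lower, in the same order. With the 20-read minimum edgeR tested 1, 3, 4, 2, 0 and 3 of their genes and called 0. The two-cell-like list had the highest median of all lists, 1.05, from low values: Zscan4c was at 2.8 at 24 h and 21.9 at 48 h with Dox, against 0.9 and 8.0 without Dox (adjusted p = 0.311). Its 5 Zscan4 members are near-identical copies between which reads can be split.

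Partners of ISY1 were not called. Of 14 genes of the Prp19 complex and its partners limma called 0 and edgeR with the 20-read minimum called 0. Of unadjusted p values under 0.05 there was 1, in a higher gene, and the median was -0.07. Cdc5l, a core subunit, was at 1812 at 24 h and 1063 at 48 h with Dox, against 1581 and 936 without Dox (log2 0.19 ± 0.10, adjusted p = 0.397). Syf2, another partner, was at 371 with Dox and 303 without Dox at 24 h, and 310.5 with Dox and 238 without Dox at 48 h (log2 0.34 ± 0.14, adjusted p = 0.225). Their hourly differences all lay between -0.45 and 0.38. Among 20 splicing regulators 1 rose and 1 fell, with a median of -0.10, where 2.75% of all genes tested rose and 1.14% fell. Clk1, a kinase gene, had 185 at 24 h and 267 at 48 h with Dox, against 119 and 156 without Dox (log2 0.70 ± 0.17, adjusted p = 0.0156). Srsf2, an SR protein gene, had 1858 with Dox and 2170.0 without Dox at 24 h, and 870.2 with Dox and 1308 without Dox at 48 h (log2 -0.41 ± 0.11, adjusted p = 0.0339).

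MicroRNA processing genes were not called either. For 15 genes of the machinery limma made 0 calls and edgeR with the 20-read minimum made 0. Unadjusted p values under 0.05 were found for 2 genes, both higher, and the median was 0.03. Dgcr8, which recognises primary transcripts, was at 156 at 24 h and 59.6 at 48 h with Dox, against 138 and 75.2 without Dox (adjusted p = 0.913). Drosha, its nuclease partner, was at 689 with Dox and 756 without Dox at 24 h, and 615 with Dox and 704 without Dox at 48 h (adjusted p = 0.558). The main microRNAs of ESCs come from the miR-290 cluster on chromosome 7 and the miR-302 cluster on chromosome 3 and share a seed, AAGUGCU, in bases 2 to 8. A member of each cluster is shown, from RefSeq on GRCm38.p6, with the seed in capitals.
mmu-miR-294-3p: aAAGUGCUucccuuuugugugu
mmu-miR-302b-3p: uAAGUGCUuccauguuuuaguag

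Transcripts known as targets of this seed gave few calls. Of 13 genes 0 rose and 1 fell, Lefty1, and the median was 0.25 (0.34 at 24 h and 0.18 at 48 h). Over all genes tested 2.75% rose and 1.14% fell. By direction, 8 of the 13 were higher at both hours and 1 lower, against 33.1% and 26.5% of all genes tested. At an unadjusted p under 0.05 in limma, 3 were higher and 1 lower. Lats2, a Hippo kinase gene, was at 94.4 at 24 h and 75.4 at 48 h with Dox, against 66.4 and 75.2 without Dox (adjusted p = 0.669). Casp2, a caspase gene, was at 211 with Dox and 197 without Dox at 24 h, and 213 with Dox and 217 without Dox at 48 h (adjusted p = 0.95). Rbl2, a pocket protein gene, was higher in both pairs without passing (118 at 24 h and 153 at 48 h with Dox, against 91.8 and 92.9 without Dox, adjusted p = 0.157). So was Tgfbr2, with 45.8 at 24 h and 28.9 at 48 h with Dox, against 34.5 and 9.7 without Dox (adjusted p = 0.165). In a DGCR8 knockout, a different ESC line that lacks microRNA processing, the same 13 genes had medians of 1.78 at 24 h and 1.40 at 48 h over the same libraries without Dox. There Lats2 was at 434 at 24 h and 327 at 48 h and Casp2 at 896 at 24 h and 933 at 48 h. The naive list had medians of 0.32 and 1.30 with Dox and of 0.97 and 1.28 in the knockout at these hours. The formative list had -0.50 and -0.74 with Dox and -0.90 and -0.31 in the knockout. Dox and knockout differences share the libraries without Dox and were not compared by a test. No small RNA library of these 4 conditions with Dox was analysed here.

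The largest rises that held at both hours, ranked by the smaller of the hourly differences, were outside the lists. Agpat9, an acyltransferase of triglyceride synthesis, had 55.1 at 24 h and 33.3 at 48 h with Dox, against 10.9 and 4.4 without Dox (log2 2.45 ± 0.39, adjusted p = 0.00039). Slc52a3, a riboflavin transporter gene, had 22.4 with Dox and 4.5 without Dox at 24 h, and 17.5 with Dox and 3.5 without Dox at 48 h (log2 2.06 ± 0.48, adjusted p = 0.0121). Gjb5, a connexin gene, had 111 at 24 h and 64.0 at 48 h with Dox, against 29.1 and 15.9 without Dox (log2 1.92 ± 0.28, adjusted p = 0.000168). In all 3 genes both Dox libraries exceeded both libraries without Dox. Fbln5 (a matrix fibulin, 1.86 ± 0.38), Mst1 (a secreted ligand, 2.02 ± 0.41), Adgra2 (an adhesion receptor, 2.13 ± 0.44), Klf15 (a Krüppel-like factor, 1.76 ± 0.38), Emp2 (an epithelial membrane protein, 1.67 ± 0.26), Igsf23 (1.73 ± 0.44) and Pramel7, a PRAME-family gene of naive cells (1.94 ± 0.53), were also among the 12 largest. Their adjusted p values lay between 0.000383 (Emp2) and 0.0384 (Pramel7). Several of the largest rises rest on few reads without Dox. At 24 and 48 h without Dox, Pramel7 had 7 and 1 reads, Slc52a3 5 and 4, Adgra2 4 and 9, and Igsf23 7 and 6. Pramel7, Slc52a3 and Igsf23 fell under the 20-read minimum of edgeR and were not tested there.

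The largest falls, ranked the same way, were mostly in genes of low to moderate level. Cnn1, which encodes calponin, was at 0 at 24 h and 4.4 at 48 h with Dox, against 6.4 and 39.8 without Dox (log2 -2.90 ± 0.56, adjusted p = 0.00289). If the 0 with Dox is taken as 3 reads, Cnn1 was 2.28-fold lower at 24 h. That figure takes the 7 reads without Dox as exact, so it is no firm lower limit. Car4, a carbonic anhydrase gene, had 16.8 at 24 h and 215 at 48 h with Dox, against 40.9 and 550.4 without Dox (log2 -1.29 ± 0.21, adjusted p = 0.000432). Vrtn, a vertebrate DNA-binding protein gene, had 8.4 with Dox and 30.0 without Dox at 24 h, and 27.2 with Dox and 141 without Dox at 48 h (log2 -2.03 ± 0.32, adjusted p = 0.00039). Both genes had higher values at 48 h than at 24 h in each condition, and the Dox library was the lower in each pair. Ldoc1 (-2.27 ± 0.42), the guidance gene Sema6a (-2.04 ± 0.50), the matrix-related Cthrc1 (-1.68 ± 0.45), the claudin gene Cldn5 (-1.70 ± 0.42), the ciliary Hedgehog gene Evc (-1.67 ± 0.37), Zfp467 (-1.69 ± 0.42), Tmem158 (-1.38 ± 0.37) and Rbbp8nl (-1.37 ± 0.34) fell too. Sema6a was at 0 with Dox at 24 h against 4.5 without, 1.61-fold lower by the same reckoning, which takes its 5 reads without Dox as exact.

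The Dox difference was wider at 48 h than at 24 h. Its standard deviation over all tested genes was 0.61 at 48 h and 0.49 at 24 h. 1484 genes (9.29%) were 2-fold different at 48 h and 983 (6.15%) at 24 h. Of the called genes 343 of 439 higher and 157 of 182 lower had the larger difference at 48 h. Ptgs2, the inducible cyclooxygenase gene, had 50.5 at 24 h and 28.1 at 48 h with Dox, against 27.3 and 0.9 without Dox. Its difference was 0.86 at 24 h and 3.94 at 48 h, but the 48 h value without Dox is 1 read. With 3 reads in its place the 48 h difference is 2.99, and the gain over 24 h is 2.13 in place of 3.07. 2210409E12Rik had 140.2 at 24 h and 82.5 at 48 h with Dox, against 106 and 9.7 without Dox, a gain of 2.57. Both genes had a lower value at 48 h than at 24 h in both conditions, by more without Dox. In the other direction, Zfp771 had 60.7 with Dox and 48.2 without Dox at 24 h, and 4.4 with Dox and 26.5 without Dox at 48 h. Slc25a10, a mitochondrial carrier gene, had 65.4 at 24 h and 4.4 at 48 h with Dox, against 87.3 and 33.6 without Dox. Lrfn1 had 71.0 with Dox and 59.1 without Dox at 24 h, and 18.4 with Dox and 75.2 without Dox at 48 h. Setbp1 and Ptpru had opposite signs at the hours, with hourly differences of 1.16 at 24 h and -1.22 at 48 h and of 0.61 at 24 h and -1.63 at 48 h, as did Gna14 with -1.29 at 24 h and 0.78 at 48 h. A difference between 2 single hours has no residual spread, so none of these was tested.

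Most genes called early pointed the same way later. At both 72 and 96 h, in libraries that did not enter the fit, 342 of the 439 higher genes (77.9%) were again higher, against 33.4% of all tested genes. Likewise 122 of the 182 lower genes (67.0%) were again lower, against 40.5%. The called genes had a median level of 292, against 96.25 for all tested genes, and these shares were not matched for level. All 12 called naive genes and all 12 called mitochondrial genes were higher at both later hours. Of the 9 called formative genes 8 were lower, Dnmt3a being the exception. Medians of the higher genes were 0.59, 0.94, 0.81 and 0.65 at 24, 48, 72 and 96 h, and those of the lower genes -0.43, -0.89, -0.50 and -0.28. The Dox effect at 24 and 48 h differed from that at 72 and 96 h for 443 of 16117 genes (2.75%), 146 with the higher effect early (0.906%) and 297 with the lower effect early (1.84%). Of the genes called early 60 higher and 17 lower were among them. The called genes were picked for their early effect, which enters the same difference, so both counts are descriptions. Zfp42 had a late difference of 2.36 at 72 h and 2.68 at 96 h, larger than early (early minus late -1.74 ± 0.27, adjusted p = 0.0172). Nr0b1 had one of 4.06 at 72 h and 4.83 at 96 h (-3.63 ± 0.42, adjusted p = 0.00651). Pou3f1 went the other way, with -0.32 at 72 h and -0.09 at 96 h late (-1.01 ± 0.15, adjusted p = 0.0158). It had 721 at 72 h and 709 at 96 h with Dox, against 904 and 754 without Dox.

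**Figure D5:**
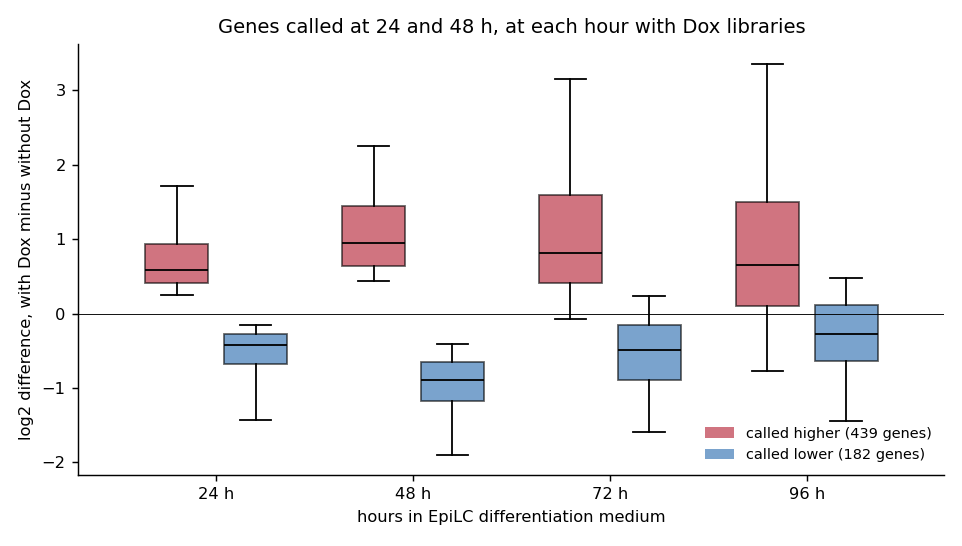
Log2 difference, with Dox minus without Dox, at 24, 48, 72 and 96 h for the 439 genes called higher (red) and the 182 called lower (blue) at 24 and 48 h. Boxes span the quartiles with the median as a line, and whiskers reach the 5th and 95th percentiles. Medians of the higher genes stay between 0.59 and 0.94, while those of the lower genes end at -0.28.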

How the data were processed

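PolyA RNA was sequenced from Trizol extracts (3 ug of total RNA, TruSeq stranded kit, per the labels' protocols). The aligner was Bowtie and the builds named are GRCm38 and mm9, per the submitters' processing notes; version, build roles, annotation, counter, strand setting and normalisation are not given in the sources used here. The deposited values are of the unit signal. In each library the low values step by a fixed unit, as reads divided by a single size factor would. Whole reads were recovered in the 4 libraries (100% of low values within 0.1 reads). A line with no name was dropped, and 20 date-like names were kept but not named.

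Genes with a mean of at least 1 (15980) were tested on log2(value + 1) with limma 3.58.1 in R 4.3.3 (hour as block, intensity trend, two-sided, Benjamini-Hochberg over all genes, threshold 0.05). The early and late effects were compared in 1 fit of 8 libraries. ± is the standard error. Alternatives used edgeR 4.0.16 and DESeq2 1.42.0 on recovered reads, other scalings, filters and pseudocounts, and each pair left out; the 20-read minimum was chosen after seeing the data. The code was tested on simulated data. The hour is the block because libraries pair by hour, not by culture.

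The libraries and the 30 gene lists (360 members, 319 tested) were chosen with earlier results of these data known. Named genes are Isy1, the 12 largest rises and falls that passed and kept their direction (by the smaller hourly difference, value of at least 20 in 1 library), up to 4 such members per list, and 5 genes at each end of the 48 h minus 24 h difference (value of at least 50); other list members were named after their values were seen. Of the genes this rule names, 2 are not reported here.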

Additional observations from a re-analysis of the deposited data

Results flagged for a closer look

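For 31 of the named genes and list members the Dox effect at 24 and 48 h differed from that at 72 and 96 h by a test of the difference itself (limma over 8 libraries, Benjamini-Hochberg adjusted over 16117 genes). They come from the 319 list members tested and the other named genes. Over all 16117 genes 2.75% differed. Some were named for a large early effect, which enters the same difference, so the count of 31 is a description. Each value below is the early minus the late log2 effect.

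The effect was lower early for 18 of them. Among these, Wnt8a had -3.04 (adjusted p = 0.0206), with 0.9 at 24 h and 3.5 at 48 h with Dox, against 3.6 and 21.2 without Dox early and 67.0 at 72 h and 68.8 at 96 h with Dox, against 26.0 and 30.2 without Dox later. Cldn5 had -2.49 (adjusted p = 0.0339), being lower with Dox early and at 18.7 at 72 h and 17.6 at 96 h with Dox, against 14.0 and 7.2 without Dox. Vrtn had -2.19 (adjusted p = 0.0182) and stood at 208 at 72 h and 178 at 96 h with Dox, against 249 and 117 without Dox. Dppa3 had -2.15 (adjusted p = 0.0464), lower with Dox early and higher later, at 34.1 at 72 h and 48.0 at 96 h with Dox, against 21.0 and 14.9 without Dox. Sox2 had -1.90 (adjusted p = 0.00475), nearly level early and at 986 at 72 h and 801 at 96 h with Dox, against 273 and 152 without Dox. The germline gene Dazl had -1.46 (adjusted p = 0.0241), and was higher with Dox at all 4 hours. Mycn had -1.58 (adjusted p = 0.0149) and was at 559 at 72 h and 399.5 at 96 h with Dox, against 376 and 206 without Dox, above the values without Dox.

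For 5 further genes of the naive list the gaps were -3.63 for Nr0b1, -2.25 for Pecam1, -1.74 for Zfp42, -1.44 for Esrrb and -1.16 for Manba (adjusted p from 0.00651 for Nr0b1 to 0.0404 for Esrrb). Dnmt3l had -2.71 (adjusted p = 0.00656) and was at 1231 at 72 h and 758 at 96 h with Dox, against 208 and 64.7 without Dox. The Nodal pathway ligand gene Gdf3 had -0.89 (adjusted p = 0.0428).

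Smaller gaps of the same direction were -1.01 for Pou3f1, -0.75 for the Nodal antagonist gene Lefty2, -0.66 for Utf1 and -0.57 for Trim28, with adjusted p values from 0.0158 (Pou3f1) to 0.0492 (Trim28). The effect was higher early for 13 genes. Cyr61, a matricellular YAP target, had 1.94 (adjusted p = 0.00475): it was at 329 at 24 h and 322 at 48 h with Dox, against 246 and 194 without Dox early and at 314 at 72 h and 448 at 96 h with Dox, against 693 and 1353 without Dox later. Nes, the intermediate filament gene nestin, had 1.20 (adjusted p = 0.0424) and was at 141 at 72 h and 239 at 96 h with Dox, against 584 and 716 without Dox. For mt-Atp8 the gap was 0.67 (adjusted p = 0.0437), with 4368 at 72 h and 3906 at 96 h with Dox, against 3988 and 3543 without Dox. The keratin gene Krt18 had 2.01 (adjusted p = 0.0238) and was at 236 at 24 h and 550.0 at 48 h with Dox, against 170.0 and 759 without Dox early and 306 at 72 h and 405 at 96 h with Dox, against 882 and 2262 without Dox later, and its partner Krt8 had 1.26 (adjusted p = 0.0483). Thy1, a fibroblast surface marker, had 2.39 (adjusted p = 0.0241). The STAT3 targets Pim1 and Socs3 had 1.42 and 1.40 (adjusted p = 0.0238 and 0.0424). The actin-linked genes Cnn2 and Vcl had 1.19 and 0.80 (adjusted p = 0.00869 and 0.0224). The remaining gaps were 1.08 for Tcf7, 0.88 for Pgk1 and 0.76 for Tead2, with adjusted p values from 0.0409 (Pgk1) to 0.0493 (Tcf7). Without hour as a block, or without the intensity trend, limma called 0 genes for this difference.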

How the results depend on the processing

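The 621 calls depend strongly on the processing. limma called 0 genes without the trend (1575 at an unadjusted p under 0.05), without hour as the replicate block (293) and with no filter (1731), and edgeR with no 20-read minimum called 0 (2045). The count was 228 with median ratio scaling, 208 with TMM scaling, 60 with 8 libraries and a shared spread, 1 with 12 libraries and a spline, 64 in DESeq2 and 67 in DESeq2 with the 20-read minimum. It was 600 to 750 under the other pseudocounts and the mean minimum of 20, 597 in edgeR with 20 reads, and 2 to 524 with a pair left out. The 240 genes that were 2-fold at both hours became 80 with a pseudocount of 5, 80 with a mean minimum of 20, and 983 to 1484 with a pair left out. The 443 early against late differences became 0 without the trend (2558 unadjusted), 0 without the hour block (818), 71 with no filter and 70 to 659 with a pair left out. Isy1 stayed at log2 2.02 but lost its call without the trend (2.02, adjusted p = 0.475), without the block (2.02, adjusted p = 1), with no filter (2.02, adjusted p = 0.468), with the spline (1.97, 0.0679), in edgeR (2.01, 0.219) and in DESeq2 (2.00, 0.356, and 2.00, 0.355 with 20 reads); with a pair left out it was 1.20 to 2.84, adjusted p = 0.00795 and 0.000427. Fits with a pair left out take their spread from the pairs that remain, and those for 1 early pair from 72 and 96 h only. Of the 73 named genes called, 61 were also called by edgeR with 20 reads, 43 under TMM and 44 under median ratio. No direction reversed under any alternative run, but this was largely given in advance. The called named genes had the same direction at both hours, so leaving out either pair could not reverse them. Fits without the trend, the block or the filter kept the same difference. The causes were not tested. At this depth a gene under 3 reads in a library cannot be told from absent.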
